A study of Mus musculus with 8 samples.

Results

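The genes described here are the 44 genes of the DNA replication origin and fork machinery, and the question was how their transcripts differed between fetal livers with and without EKLF. They were taken by symbol from a list of names and not by a rule on measured values, but the list was chosen with earlier results of these data known. A gene's values are those of every probe set whose only gene symbol in the platform annotation is that name. All 44 had such a probe set, out of 18193 genes on the array, and all 44 were among the 11275 genes that passed the filter on low signal. They have 97 probe sets, of which 89 were tested. The genes fall into 5 role groups, which are origin licensing (10 genes), the helicase (12), the polymerases with primase and the single-strand binding protein RPA (12), the clamp, its loader and the enzymes that join Okazaki fragments (8), and ribonucleotide reductase (2).

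The samples were 8 fetal livers of mouse embryos at E14.5, in mid-gestation, with 1 Affymetrix array for each. WT embryos carry an intact Eklf gene (4 arrays, replicates 1 to 4), and KO embryos are homozygous Eklf knockouts (4 arrays, replicates 2 to 5). EKLF, the product of Klf1, is an erythroid transcription factor that binds CACCC motifs. The mice were of B6 lines, the knockout was made with an engineered BAC and E2A-Cre mice, and the part of the gene that was removed is not stated in the labels or methods. The tissue was used whole and without culture, so that erythroid cells, hepatocytes, macrophages, endothelium and other cells contributed to each array, and fewer cells of a type and less RNA per cell cannot be told apart. Each embryo gave a single array, so that precision is set by how many arrays there are.

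Replication starts at origins, where the origin recognition complex (ORC), with Cdc6 and Cdt1, loads the ring-shaped MCM helicase in G1 phase. In S phase, kinases and the factors Mcm10, Cdc45 and GINS turn the ring into an active helicase, primase with polymerase alpha lays down primers, and polymerases delta and epsilon copy the strands, held by the clamp PCNA. Most of these genes are textbook targets of E2F factors and are transcribed mainly in cycling cells, which in the fetal liver at this age are largely erythroid progenitors.

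The letters before the genes' starts are shown first, because transcripts of this machinery are classically grouped by the E2F-type strings in their promoters. RefSeq windows of the 250 bases before the start (build GRCm38.p6, in the direction of the gene) were at hand for 36 of the 44 genes. Gmnn, Gins1, Gins2, Gins4, Mcm4, Pole, Prim2 and Rfc2 had none. Of the 36 genes, 9 (25%) held at least 1 of the 3 strings TTTCGCGC, TTTGGCGC and TTTCCCGC on either strand, beside 1.78% of all 27025 genes with a window. The 10 stretches that hold them follow, with the matches in capitals.
Orc1 (chr4:108579411-108579450, plus strand): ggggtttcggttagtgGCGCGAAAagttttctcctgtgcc
Orc3 (chr4:34614960-34614999, minus strand): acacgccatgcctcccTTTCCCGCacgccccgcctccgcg
Cdc6 (chr11:98907997-98908036, plus strand): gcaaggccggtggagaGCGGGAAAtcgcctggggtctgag
Mcm5 (chr8:75109340-75109383, plus strand): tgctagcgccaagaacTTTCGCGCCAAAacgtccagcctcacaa
Mcm6 (chr1:128359788-128359831, minus strand): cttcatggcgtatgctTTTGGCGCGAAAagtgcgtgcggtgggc
Mcm6 (chr1:128359729-128359768, minus strand): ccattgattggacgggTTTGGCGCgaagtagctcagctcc
Mcm7 (chr5:138172025-138172064, minus strand): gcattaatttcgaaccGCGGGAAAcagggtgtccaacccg
Gins3 (chr8:95633502-95633541, plus strand): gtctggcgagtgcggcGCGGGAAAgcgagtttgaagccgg
Pola1 (chrX:93632270-93632309, minus strand): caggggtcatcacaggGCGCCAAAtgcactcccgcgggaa
Rfc3 (chr5:151651209-151651234, minus strand): aagtgacgtcgcacgcTTTCGCGCtc

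In the Mcm5 stretch and the first Mcm6 stretch, TTTCGCGC on one strand overlaps TTTGGCGC on the other, and these were the only stretches with 2 matches. In Orc1 the match lies 20 to 27 bases before the start. Of the 9 genes with such a string, 8 were called lower in KO on the MAS5.0 scale (Orc1, Cdc6, Mcm5, Mcm6, Mcm7, Gins3, Pola1 and Rfc3) and Orc3 was not called, with a median log2 difference of -0.81. Of the 27 genes with a window and no such string, 20 were called lower and 1 higher, with a median of -0.68. Over all tested genes 21.0% were called lower and 25.5% higher on this scale. Many of the genes called lower on it thus held none of the 3 strings in this window, and a match of letters is no binding site. With arrays scaled on the hybridisation controls, described below, 5 of all 44 genes were called lower and 9 higher.

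The CACCC string, the core of the motif that EKLF recognises, was in the window of 21 of the 36 genes (58.3%) and of 54.5% of all genes. The longer CCNCNCCC, where N is any base, was in 22 (61.1%) against 48.5%, and CCAAT was in 23 (63.9%) against 37.5%, each counted on both strands and free to overlap one another. The windows of the 4 genes with the largest differences among those with a window are printed in full, with CACCC and CCAAT and the E2F-type strings, on either strand, in capitals.
Rrm2 (chr12:24708004-24708253, plus strand): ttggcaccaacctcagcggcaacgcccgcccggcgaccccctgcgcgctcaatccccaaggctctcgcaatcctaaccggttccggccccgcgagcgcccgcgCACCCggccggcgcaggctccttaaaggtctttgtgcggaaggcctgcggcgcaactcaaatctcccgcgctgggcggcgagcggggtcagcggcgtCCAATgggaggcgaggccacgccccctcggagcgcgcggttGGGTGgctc
Orc1 (chr4:108579204-108579453, plus strand): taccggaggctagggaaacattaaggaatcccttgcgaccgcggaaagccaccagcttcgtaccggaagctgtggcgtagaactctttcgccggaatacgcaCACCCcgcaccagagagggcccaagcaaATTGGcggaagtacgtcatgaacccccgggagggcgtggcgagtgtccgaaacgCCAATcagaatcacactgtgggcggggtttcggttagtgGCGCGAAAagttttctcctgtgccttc
Pold3 (chr7:100121503-100121752, minus strand): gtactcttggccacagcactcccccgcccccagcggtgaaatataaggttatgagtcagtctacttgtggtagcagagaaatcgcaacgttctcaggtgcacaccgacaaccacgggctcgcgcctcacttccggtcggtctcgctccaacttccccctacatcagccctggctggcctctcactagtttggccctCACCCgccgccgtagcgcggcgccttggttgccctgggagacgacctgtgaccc
Pcna (chr2:132253181-132253430, minus strand): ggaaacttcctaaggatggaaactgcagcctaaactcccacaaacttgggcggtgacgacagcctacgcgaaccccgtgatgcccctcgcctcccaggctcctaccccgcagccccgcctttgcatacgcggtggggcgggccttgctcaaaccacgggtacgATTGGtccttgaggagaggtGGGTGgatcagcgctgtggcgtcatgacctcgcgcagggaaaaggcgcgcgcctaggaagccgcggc
Rrm2 held CACCC 143 to 147 and 5 to 9 bases before its start and CCAAT 46 to 50 bases before it. Orc1 held CACCC and also CCAAT on both strands and the E2F-type string. The Pold3 window held 1 CACCC and neither CCAAT nor an E2F-type string, and that of Pcna held 1 CACCC and 1 CCAAT.

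The genotype was checked on Klf1 itself, whose single probe set measured log2 signals of 14.04, 13.87, 13.98 and 13.90 in the WT arrays and 10.81, 10.56, 10.65 and 10.59 in the KO arrays. Every KO array lay far below every WT array, with a log2 difference of -3.29 (9.81-fold, limma adjusted p = 5.89e-07). Whether these probes fall inside the removed part is unknown, so the remaining KO signal cannot be read. WT replicate 1 stood apart by Xist (13.03, against 6.17 to 6.84 in the other WT arrays and 5.37 to 6.09 in the KO arrays), while the X-linked member Pola1 was 11.47 in it against 11.42 to 11.54 in the other WT arrays. The hybridisation control probe sets, spiked in at a fixed amount, differed by -0.75 on the log2 scale (12.36 to 12.55 in WT, 11.54 to 11.85 in KO, exact permutation p = 0.029, the smallest that 8 arrays allow), and the probe sets for 18S ribosomal RNA differed by -3.90. The log2 signal of Actb at its 3′ less that at its 5′ end, a sign of RNA quality, ranged from 0.76 to 0.93 over the WT arrays and from 0.49 to 0.61 over the KO arrays (difference -0.30, exact permutation p = 0.029). The same measure for Gapdh differed by only -0.034 (exact permutation p = 0.4). The poly-A control probe sets differed by 0.086 (7.85 to 8.01 in WT, 7.72 to 8.30 in KO, exact permutation p = 0.57). Titles of the WT arrays share one series name and those of the KO arrays another, so whatever went with these names and the genotype cannot be told apart, and the part of these measures in the results was not tested. Differences below are therefore relative to the MAS5.0 scale, on which the trimmed mean of every array is the same.

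Most of the replication genes were lower in KO on the MAS5.0 scale, and most were not once arrays were scaled on the hybridisation controls. On the probe set with the highest mean of each gene, 34 of the 44 were called lower in KO (limma with Benjamini-Hochberg adjustment over all 23379 tested probe sets, adjusted p under 0.05), 1 was called higher and 9 were not called, whereas with arrays scaled on the hybridisation controls 5 were called lower and 9 higher. Over all tested genes 21.0% were called lower and 25.5% higher on the MAS5.0 scale. With quantile normalization, 75th percentile scaling and poly-A control scaling, 30, 39 and 28 of the 44 were called lower and 1, 0 and 0 higher. All tested genes called lower were then 25.8%, 37.0% and 14.9%, and those called higher 16.5%, 12.9% and 15.2%. With hybridisation control scaling 2.78% of all tested genes were called lower and 75.2% higher. Counts by role group on that scale, given below, stand beside these shares. The median log2 difference of the 44 genes was -0.71 (quartiles -0.91 and -0.41), from -1.98 for Rrm2 to 0.47 for Orc4, beside a median of 0.06 for all tested genes. The genes lower by more than 1 on the log2 scale were 9 of the 44, beside 4.39% of all tested genes, and they are Rrm2, Orc1, Pold3, Prim2, Pcna, Cdt1, Prim1, Orc6 and Fen1. In 35 of the 44 all KO arrays were below all WT arrays, beside 20.9% of all tested genes, in 1 all were above, beside 24.4%, and in 8 the groups overlapped. Counted by probe set, 59 of the 89 tested were called lower, 3 higher and 27 not called, beside 17.7% lower, 34.4% higher and 52.2% called either way among all tested probe sets, and 3 of the 89 (2 of Mcm10 and 1 of Cdc45) passed the filter only through the group in which they were higher.

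**Figure D1:**
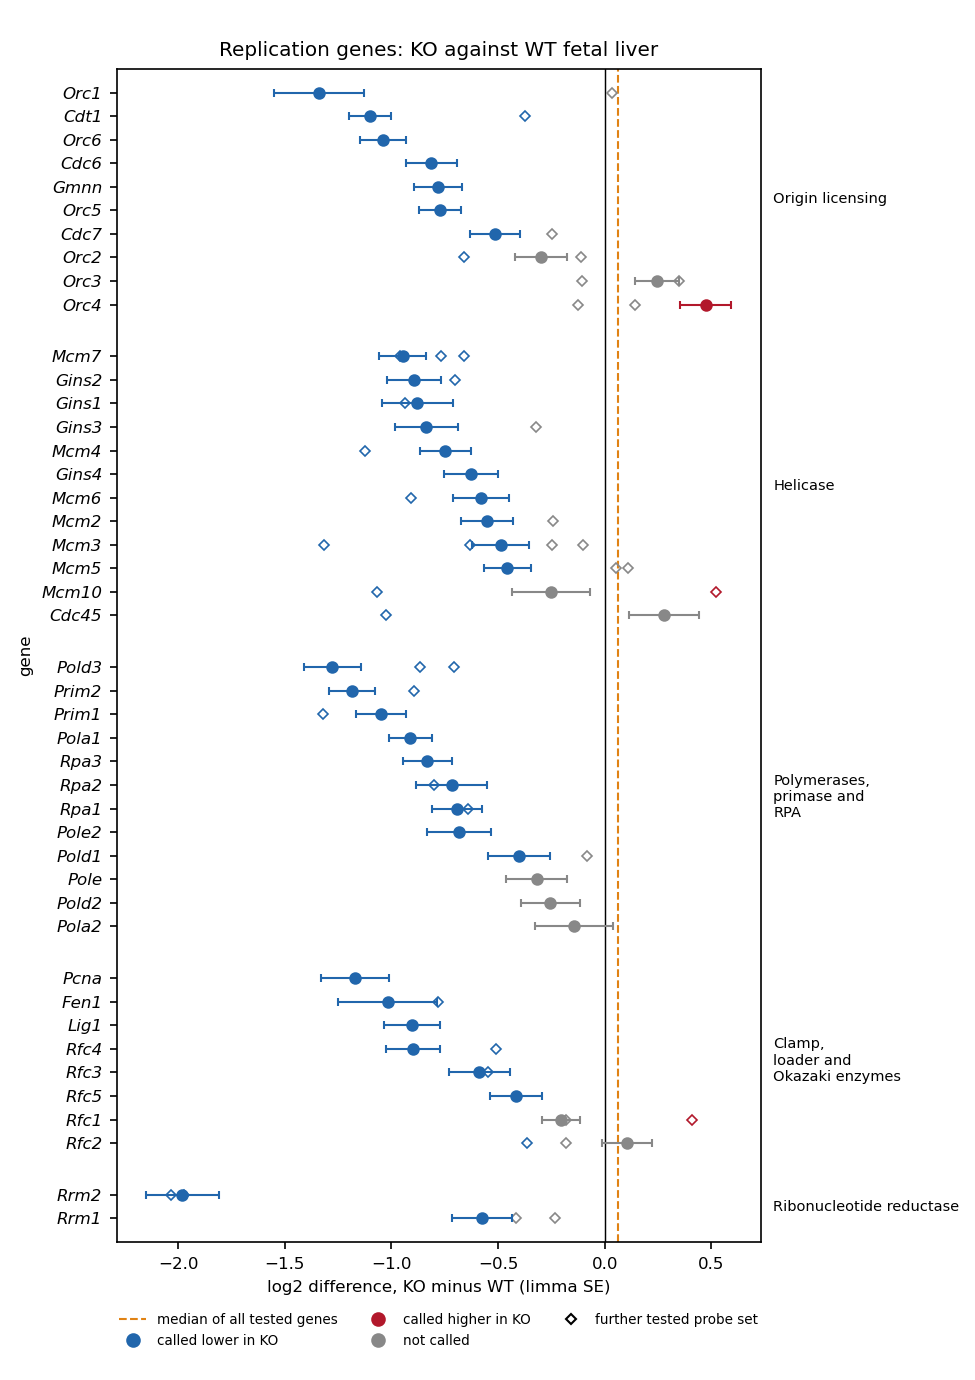
Log2 difference between KO and WT (x axis, KO minus WT) for each of the 44 replication genes (y axis, by role group), on the MAS5.0 scale. Filled points are the probe set with the highest mean with its limma standard error (4 arrays a group), open diamonds are the gene's further tested probe sets, blue is called lower, red called higher and grey not called, and the dashed line is the median of all tested genes at 0.06. Of the filled points 34 are blue and 1, Orc4, is red, and with hybridisation control scaling the median of the 44 genes would be 0.04 in place of -0.71.

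A change of scale moved the replication genes along with all other genes. On the MAS5.0 scale, with quantile normalization, with each array's 75th percentile, with poly-A controls and with hybridisation controls, the median of all tested genes was 0.06, -0.09, -0.21, -0.03 and 0.81. The median of the 44 replication genes was -0.71, -0.58, -0.97, -0.79 and 0.04 in the same order. Set against the median of all genes, the replication genes stood at -0.77 under the 4 scalings that multiply a whole array by a constant, which cannot change this distance, and at -0.49 after quantile normalization. Only quantile normalization could thus have moved these genes relative to the bulk of the transcripts, and after it they still lay below. The sign of the replication genes' own median was not the same under all 5.

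**Figure D2:**
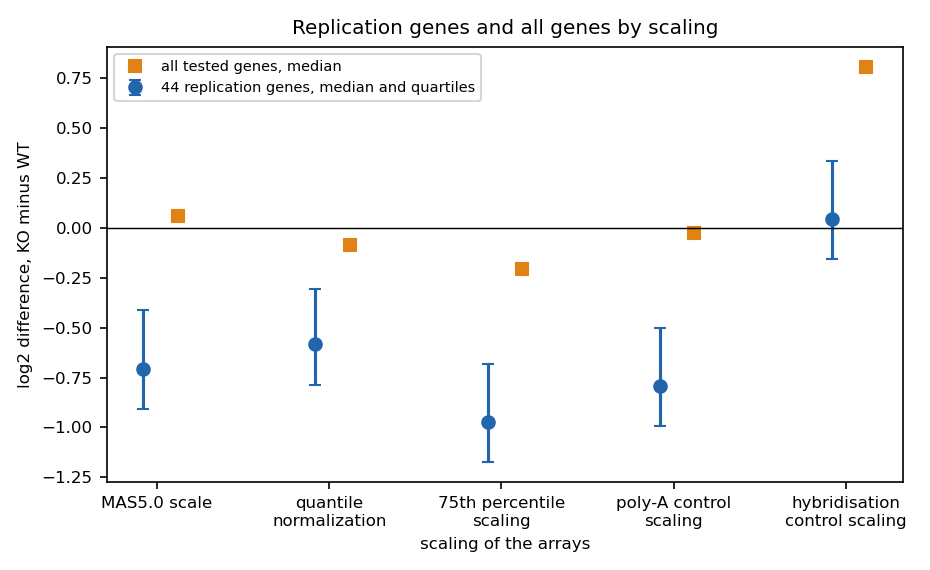
Median log2 difference, KO minus WT (y axis), of the 44 replication genes (blue points, bars from the lower to the upper quartile) and of all tested genes (orange squares) under 5 scalings of the arrays (x axis). The replication genes lie below all genes in each, by a distance that only quantile normalization could change. Their own median is negative in 4 and 0.04 with hybridisation control scaling.

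The KO arrays did not fall alike. The median of the 44 genes, each less its WT mean, was -0.46 in KO replicate 2, -0.89 in KO replicate 3, -0.62 in KO replicate 4 and -0.87 in KO replicate 5, and between -0.03 and 0.02 in the WT arrays. In 34 of the 44 genes the lowest pair of arrays was KO replicates 3 and 5, beside 19.5% of all tested genes. Among genes called lower this held for 28 of the 34 members and for 51.0% of all genes called lower. Without KO replicates 3 and 5, chosen after the data were seen, 31 genes were called lower and 2 higher with a median of -0.54, and without KO replicates 2 and 4, 39 were called lower and 1 higher with a median of -0.87. Over all tested genes the first of these fits called 17.6% lower and 20.4% higher, and the second 25.3% lower and 27.1% higher.

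**Figure D3:**
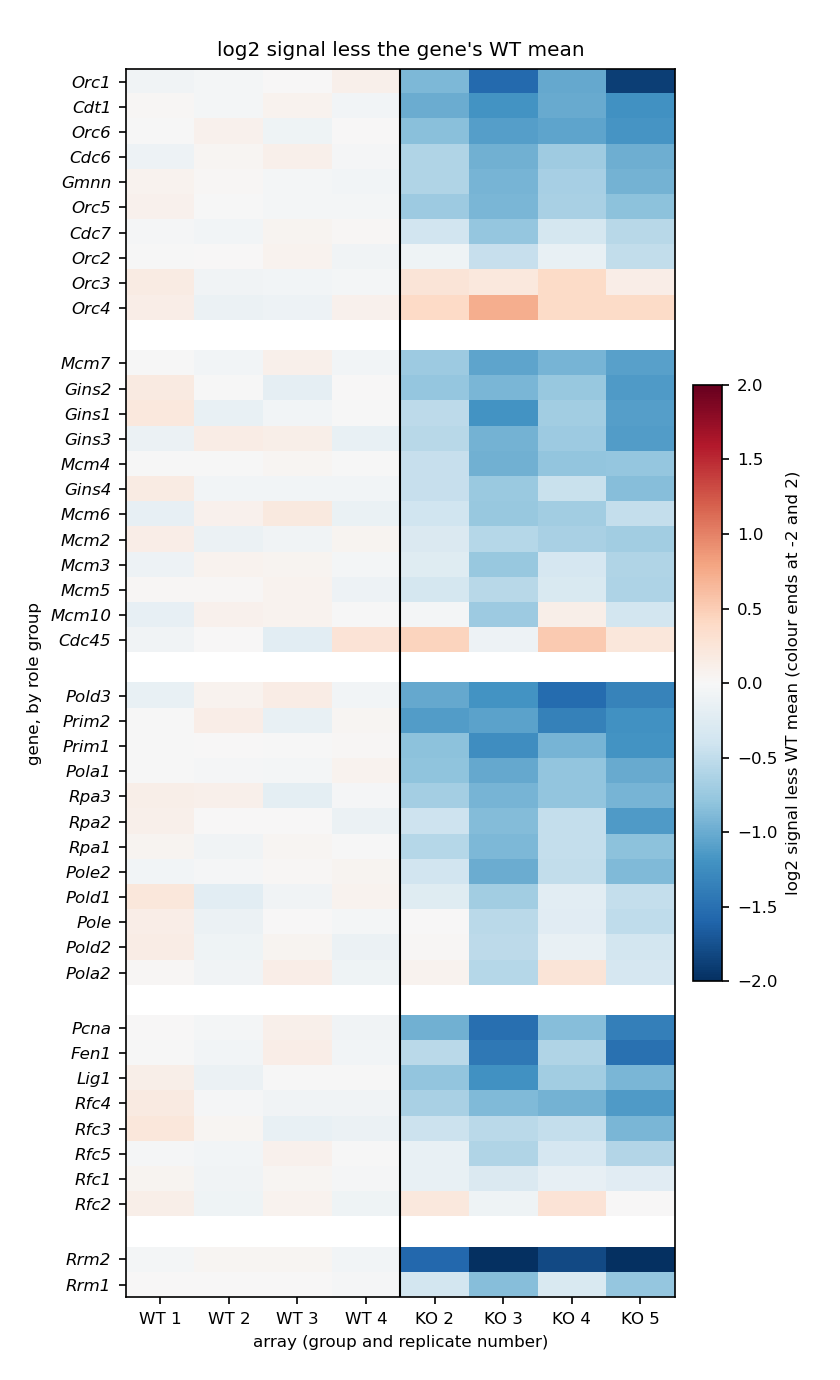
Log2 signal of each of the 44 replication genes (y axis, by role group) in each array (x axis) less the gene's mean over the 4 WT arrays, on the MAS5.0 scale, with blue for lower and red for higher. The columns KO 3 and KO 5 are the deepest blue, with medians of -0.89 and -0.87, and Orc4 is red in all 4 KO columns, whereas with hybridisation control scaling the genes' median difference between the groups would be 0.04.

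Origin licensing held both the largest fall outside ribonucleotide reductase and the single rise. Of its 10 genes 7 were called lower (Orc1, Cdt1, Orc6, Cdc6, Gmnn, Orc5 and Cdc7), 1 was called higher (Orc4) and 2 were not called (Orc2 and Orc3), with a median of -0.78, against 2 lower and 3 higher with hybridisation control scaling. Orc1 encodes the largest ORC subunit, an ATPase. Its log2 signal (probe set 1422663_at) was 10.12, 10.16, 10.20 and 10.30 in the WT arrays and 9.30, 8.64, 9.16 and 8.32 in the KO arrays. All KO arrays were below all WT arrays, with KO replicates 3 and 5 lower than the other two. The difference was -1.34 ± 0.21 (SE, n = 4 against 4, 2.53-fold, limma adjusted p = 0.000896), and a further, dimmer probe set differed by 0.03 and was not called. Cdt1 (probe set 1424143_a_at), the licensing factor that brings the MCM ring to origins, measured 13.98, 13.91, 14.02 and 13.89 in WT and 12.96, 12.75, 12.94 and 12.74 in KO. The KO arrays lay close together and well below WT, with a difference of -1.10 ± 0.10 (SE, n = 4 against 4, 2.15-fold, limma adjusted p = 4.99e-05). Its other probe set was also called lower, by a smaller -0.37. The smallest ORC subunit, Orc6 (probe set 1417037_at), measured 11.42, 11.52, 11.34 and 11.44 in WT and 10.60, 10.32, 10.38 and 10.26 in KO. Again the groups were apart in every array, by -1.04 ± 0.11 (SE, n = 4 against 4, 2.06-fold, limma adjusted p = 0.000100). With hybridisation control scaling the differences of these 3 genes were -0.59, -0.35 and -0.29, of which that of Orc6 was not called.

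Orc4, another ORC subunit, was the exception of the whole set. Its log2 signal (probe set 1453804_a_at) was 10.23, 9.99, 9.99 and 10.18 in the WT arrays and 10.50, 10.82, 10.48 and 10.48 in the KO arrays. All KO arrays were above all WT arrays, with KO replicate 3 highest. The rise was 0.47 ± 0.12 (SE, n = 4 against 4, 1.39-fold, limma adjusted p = 0.0101). It rests on 1 of 3 tested probe sets, since the other two differed by -0.13 and 0.14 and were not called. Among the remaining licensing genes, Cdc6, which loads the helicase with Cdt1, differed by -0.81, geminin (Gmnn), the inhibitor of Cdt1, by -0.78, Orc5 by -0.77 and Cdc7, the kinase that fires loaded origins, by -0.51, each called lower. A dimmer probe set of Cdc7, at -0.25, was not called. Orc2 differed by -0.30 and was not called (limma adjusted p = 0.0689), although a dimmer probe set of it was called lower at -0.66. Orc3 differed by 0.25 (limma adjusted p = 0.0725) and none of its 3 tested probe sets was called.

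Of the 12 helicase genes 10 were called lower and 0 higher, with a median of -0.60, whereas with hybridisation control scaling 0 were called lower and 1 higher. Mcm7 (probe set 1438320_s_at), a subunit of the ring, measured 14.503, 14.452, 14.606 and 14.455 in WT and 13.776, 13.451, 13.576 and 13.426 in KO. No KO array reached the lowest WT array, and the difference was -0.95 ± 0.11 (SE, n = 4 against 4, 1.93-fold, limma adjusted p = 0.000190). All 4 of its tested probe sets were called lower, from -0.66 to -0.96. The remaining ring subunits ranged from -0.75 for Mcm4 to -0.46 for Mcm5, with -0.58 for Mcm6, -0.55 for Mcm2 and -0.49 for Mcm3, each called lower on the MAS5.0 scale, although all 5 lost the call and lay at or above 0 with hybridisation control scaling. After quantile normalization Mcm3 (-0.26), Mcm5 (-0.08) and Mcm6 (-0.26) also lost the call, which left 7 helicase genes called lower. For Mcm5 the call on the MAS5.0 scale rests on the brightest probe set, as 2 others, at 0.11 and 0.05, were not called. The other probe set of Mcm2, nearly as bright, was at -0.24 and not called. The 5 probe sets of Mcm3 ranged from -1.32 to -0.10, with 3 called lower.

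GINS joins the MCM ring in the active helicase, and all 4 of its genes were called lower on the MAS5.0 scale and none of the 4 with hybridisation control scaling. Gins2 (probe set 1428713_s_at) measured 10.84, 10.64, 10.47 and 10.65 in WT and 9.87, 9.73, 9.90 and 9.52 in KO. The groups did not overlap, and the difference was -0.89 ± 0.13 (SE, n = 4 against 4, 1.86-fold, limma adjusted p = 0.000529). Gins1 (probe set 1452598_at) measured 11.80, 11.44, 11.53 and 11.57 in WT and 11.06, 10.39, 10.89 and 10.48 in KO. KO replicates 3 and 5 were the lowest and the groups stayed apart, with a difference of -0.88 ± 0.17 (SE, n = 4 against 4, 1.84-fold, limma adjusted p = 0.00261). Gins3 differed by -0.84, with a dimmer probe set at -0.32 that was not called. Gins4 differed by -0.63, or 0.12 with hybridisation control scaling. On that scale Mcm7, Gins2 and Gins1 differed by -0.20, -0.15 and -0.13, and none of them was called.

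Of the helicase genes, Mcm10 and Cdc45 were the 2 without a call. Mcm10 (probe set 1433408_a_at), which is needed for the loaded ring to start unwinding, measured 10.24, 10.49, 10.47 and 10.40 in WT and 10.36, 9.68, 10.52 and 10.03 in KO on its brightest probe set. KO replicate 2 lay within the WT range, replicate 4 just above it and the other two below it, and the difference of -0.25 ± 0.18 (SE, n = 4 against 4, limma adjusted p = 0.268) was not called. Its 2 dimmer probe sets were called in opposite directions, at -1.07 and 0.52, as was the case in 2.99% of all genes, but each passed the filter at a signal of 100 only through the group in which it was higher, so these calls carry no weight. Cdc45, the cofactor that joins GINS on the ring, differed by 0.28 on the brightest probe set (limma adjusted p = 0.184) and by -1.03 on a dimmer one, which likewise passed the filter only through WT.

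Polymerase, primase and RPA genes were lower in 9 of 12 cases on the MAS5.0 scale, with a median of -0.71, and 3 (Pola2, Pold2 and Pole) were not called, while 2 were called lower and 3 higher with hybridisation control scaling. Pold3 is an accessory subunit of polymerase delta, which copies the lagging strand. It (probe set 1443733_x_at, whose ending _x_at marks a type that can share sequence with other transcripts, as in those used for Rrm2, Mcm5 and Pold1) measured 11.30, 11.51, 11.60 and 11.39 in WT and 10.43, 10.25, 9.91 and 10.11 in KO. KO replicate 4 was the lowest here and all KO arrays lay below WT, by -1.28 ± 0.13 (SE, n = 4 against 4, 2.42-fold, limma adjusted p = 0.000115). The other 2 probe sets of Pold3 were called lower at -0.86 and -0.71. Both primase genes fell. Prim2 (probe set 1418035_a_at), its large subunit, measured 11.37, 11.51, 11.23 and 11.42 in WT and 10.27, 10.32, 10.03 and 10.16 in KO. The KO arrays were tightly grouped and far below WT, with a difference of -1.19 ± 0.11 (SE, n = 4 against 4, 2.27-fold, limma adjusted p = 5.50e-05). Prim1 (probe set 1418369_at), the catalytic subunit, measured 12.75, 12.76, 12.75 and 12.78 in WT and 11.95, 11.52, 11.83 and 11.56 in KO. WT arrays were almost identical, KO replicates 3 and 5 lowest, and the difference was -1.05 ± 0.12 (SE, n = 4 against 4, 2.07-fold, limma adjusted p = 0.000167). With hybridisation control scaling Pold3, Prim2 and Prim1 differed by -0.53, -0.44 and -0.30, the last not called.

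Within each polymerase the subunits differed unequally. Of polymerase alpha, the catalytic Pola1 was called lower at -0.91 while Pola2, its B subunit, differed by -0.14 (limma adjusted p = 0.522). Of polymerase delta, the catalytic Pold1 was at -0.40, just inside the threshold (limma adjusted p = 0.0447) with overlapping groups, and it lost the call in 5 of the 8 fits that left out 1 array (KO replicate 3 or 5, or WT replicate 1, 3 or 4, with limma adjusted p from 0.0682 to 0.114). The other probe set of Pold1, at -0.08, was not called. Pold2 differed by -0.25 (limma adjusted p = 0.153). Of polymerase epsilon, which copies the leading strand, Pole2 was called lower at -0.68 and the catalytic Pole, at -0.32, was not (limma adjusted p = 0.0875). The 3 subunits of RPA, which coats single-stranded DNA at the fork, were all called lower, Rpa3 at -0.83, Rpa2 at -0.72 and Rpa1 at -0.69, but differed by -0.08, 0.03 and 0.06 with hybridisation control scaling.

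Of the 8 genes of the clamp, its loader and the enzymes that finish Okazaki fragments, 6 were called lower (Pcna, Fen1, Lig1, Rfc4, Rfc3 and Rfc5) and 2 were not called (Rfc1 and Rfc2), with a median of -0.74, against 0 lower and 2 higher with hybridisation control scaling. Pcna (probe set 1417947_at), the sliding clamp that tethers the polymerases, measured 15.045, 15.001, 15.132 and 14.955 in WT and 14.079, 13.531, 14.181 and 13.658 in KO. KO replicates 3 and 5 were the lowest and all KO arrays were below WT, by -1.17 ± 0.16 (SE, n = 4 against 4, 2.25-fold, limma adjusted p = 0.000413). Fen1 (probe set 1421731_a_at), the nuclease that trims the flaps of Okazaki fragments, measured 12.90, 12.86, 13.04 and 12.85 in WT and 12.38, 11.48, 12.31 and 11.42 in KO. Its KO arrays fell into a higher pair, replicates 2 and 4, and a lower pair, replicates 3 and 5, and it had the largest standard error of the 44 genes, with a difference of -1.02 ± 0.23 (SE, n = 4 against 4, 2.02-fold, limma adjusted p = 0.00622). Lig1 (probe set 1416641_at), the ligase that seals the fragments, measured 12.41, 12.18, 12.29 and 12.28 in WT and 11.50, 11.09, 11.59 and 11.37 in KO. The groups were clearly apart, by -0.90 ± 0.13 (SE, n = 4 against 4, 1.87-fold, limma adjusted p = 0.000565). With hybridisation control scaling these 3 genes differed by -0.42, -0.27 and -0.16 and none was called.

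The clamp loader RFC opens the clamp around DNA. Of its small subunits, Rfc4 differed by -0.90, Rfc3 by -0.59 and Rfc5 by -0.42, each called lower. Rfc5 lost its call without WT replicate 3 (limma adjusted p = 0.0536) and after quantile normalization (-0.31, limma adjusted p = 0.0766). Rfc2 differed by 0.10 (limma adjusted p = 0.472) on its brightest probe set, with 1 dimmer probe set called lower at -0.36. The large subunit Rfc1 differed by -0.21 (limma adjusted p = 0.0853), with all KO arrays below WT, and a dimmer probe set of it was called higher at 0.41.

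Ribonucleotide reductase makes the deoxynucleotides for replication, and its S-phase small subunit Rrm2 had the largest difference of all 44 genes. Rrm2 (probe set 1434437_x_at) measured 14.90, 14.98, 14.97 and 14.89 in WT and 13.36, 12.58, 13.12 and 12.75 in KO. WT arrays were nearly level and every KO array lay far below them, KO replicates 3 and 5 the lowest. The difference was -1.98 ± 0.17 (SE, n = 4 against 4, 3.95-fold, limma adjusted p = 3.94e-05), it stayed called at -1.23 with hybridisation control scaling, and its 3 probe sets gave -1.97 to -2.04. Rrm1 (probe set 1415878_at), the large subunit, measured 12.866, 12.863, 12.872 and 12.839 in WT and 12.488, 12.003, 12.555 and 12.089 in KO. The KO arrays were below WT without overlap, with a difference of -0.58 ± 0.14 (SE, n = 4 against 4, 1.49-fold, limma adjusted p = 0.00869) that became 0.17 with hybridisation control scaling and -0.35, not called, after quantile normalization. The 2 dimmer probe sets of Rrm1, at -0.23 and -0.42, were not called.

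Since a constant per array cancels in the ratio of 2 genes of the same array, 10 pairs of partners were compared within arrays. The pairs were chosen after the values were seen, so the ratios are a description with no test, and a ratio shows unequal change, not which gene changed. Each ratio is given on the log2 scale less its WT mean. Rrm2 over Rrm1 was -1.20, -1.50, -1.50 and -1.41 in KO replicates 2 to 5, with WT arrays between -0.04 and 0.04. Orc1 over Orc4 was -1.30, -2.29, -1.41 and -2.26, the widest change of the 10 pairs, and again lowest in KO replicates 3 and 5. Prim1 over Pola2, which work in 1 complex, was -0.89, -0.67, -1.19 and -0.86. These 3 ratios were below every WT array in all KO arrays. The mean changes of the other pairs were -1.29 for Orc6 over Orc3, -1.15 for Gins1 over Cdc45, -1.02 for Pold3 over Pold2, -0.97 for Pcna over Rfc1, -0.49 for Mcm7 over Mcm5 and -0.32 for Cdt1 over its inhibitor Gmnn, with no overlap between groups. Fen1 over Lig1 changed by -0.11 on average and its groups overlapped. How often ratios of other gene pairs separate the groups was not counted. As these pairs were picked with their values known, the separation is no result about partners.

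**Figure D4:**
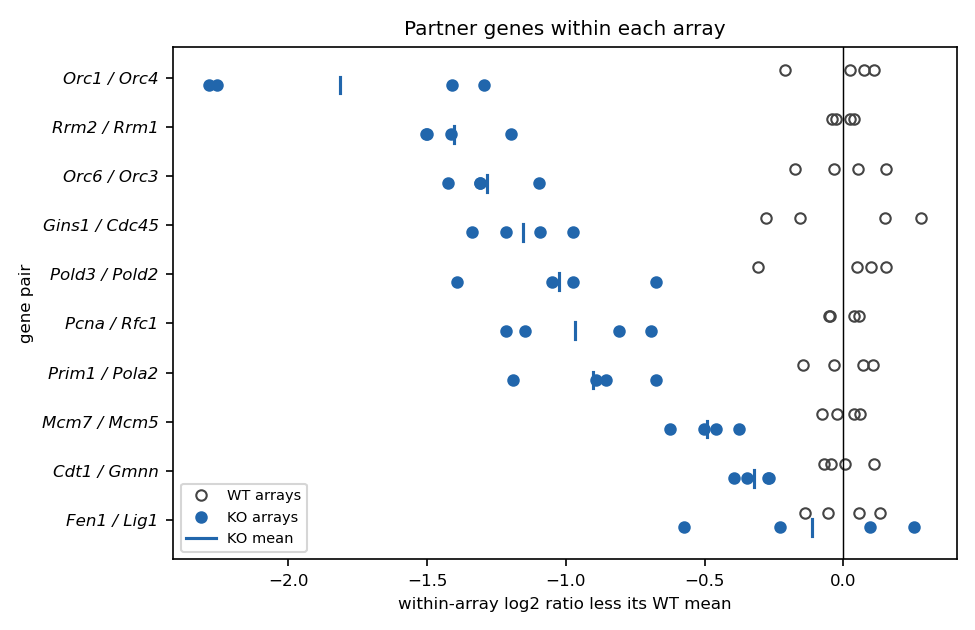
Within-array log2 ratio of 2 partner genes, less its mean over the WT arrays (x axis), for 10 gene pairs (y axis), with open circles for WT arrays, filled circles for KO arrays and a bar at the KO mean. KO arrays lie below WT arrays in 9 pairs, from a mean of -1.81 for Orc1 over Orc4 to -0.32 for Cdt1 over Gmnn, and overlap with WT for Fen1 over Lig1, and scaling an array by any constant, hybridisation controls included, leaves these ratios as they are. The pairs were chosen after the values were seen, and other gene pairs were not counted.

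Other genes of replication and of the cell cycle were taken from lists of names that leave out the 44. Their counts stand beside 21.0% of all tested genes called lower and 25.5% called higher on the MAS5.0 scale. Of 38 other replication factors 36 were tested, and 22 were called lower and 2 higher with a median of -0.55. The largest falls among them were Clspn, the claspin checkpoint mediator, at -1.48 and Tipin, of the fork protection complex, at -1.47, and the rises were Pold4, the smallest polymerase delta subunit, at 0.79 and Rrm2b, the p53-induced small subunit of ribonucleotide reductase, at 0.47. Thus Rrm2 and Rrm2b, which serve the same enzyme, moved in opposite directions on the MAS5.0 scale. Of 23 tested nucleotide and folate enzymes 9 were called lower and 2 higher with a median of -0.38, led by Dck, deoxycytidine kinase, at -2.08 and Dut, the dUTPase, at -1.41, with Mthfd2 and Shmt2, both mitochondrial folate enzymes, higher at 0.89 and 0.70. Of 31 mitosis and spindle genes 18 were called lower and 2 higher, also with a median of -0.38, led by Ube2c at -1.31 and Birc5 at -1.14, with Pttg1 at 0.41 and Kif11 at 0.34 higher. Of 26 E2F factors, pocket proteins and G1 kinases with their partners 15 were called lower and 4 higher with a median of -0.38, led by E2f2 at -3.07 and the kinase inhibitor Cdkn2c at -1.95, with the inhibitor Cdkn1a at 2.24 and cyclin D2 (Ccnd2) at 1.60 higher. These medians lie between that of the 44 genes and that of all tested genes on the MAS5.0 scale, and with hybridisation control scaling each would move up with all other genes, past 0.

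Markers of cell types differed with genotype on the same arrays, and erythroid and hepatocyte markers, which define this tissue, were bright in all 8. The values are on the MAS5.0 scale, and with hybridisation control scaling the median difference of the erythroid markers stays below 0 while that of the hepatocyte markers turns above it. The counts stand beside 21.0% of all tested genes called lower and 25.5% called higher on the MAS5.0 scale. Of 12 erythroid markers 8 were tested and all 8 were called lower, and their signals summed to between 114147 and 119565 in WT and between 48194 and 51848 in KO. Of 12 tested hepatocyte markers 8 were lower and 1 higher, with WT sums of 247816 to 274057 and KO sums of 165702 to 198965. Markers of endothelium (8 of 10 higher, 5725 to 6231 against 7542 to 9056), of megakaryocytes (5 of 8 higher, 24227 to 27583 against 29309 to 38050) and of stellate and mesenchymal cells (6 of 9 higher, 13569 to 14555 against 18322 to 27889) had higher sums in every KO array. Pf4 and Ppbp, by far the brightest megakaryocyte markers and so most of that sum, were not called. Sums overlapped for macrophages (1 of 11 lower, 18103 to 22787 against 12894 to 28288), granulocytes (2 of 10 higher, 47984 to 56155 against 49941 to 125993, the last in KO replicate 5) and lymphoid cells (1 of 3 tested lower, 361 to 518 against 266 to 456). The granulocyte share called higher is below that of all tested genes. The lymphoid gene called lower, Igll1 (mean log2 signal 7.33 in WT, 4.89 in KO), passed the filter only through WT, so its call carries no weight. MAS5.0 lists no marker at 0. The erythroid and hepatocyte sums were lower in every KO array, as were most of the replication genes on the MAS5.0 scale, and the part of any cell type in the result was not tested.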

How the data were processed

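Total RNA of whole E14.5 fetal livers from 4 WT and 4 KO embryos was hybridized to Affymetrix mouse arrays. The authors computed MAS5.0 signals and deposited them as linear intensities for 45101 probe sets. MAS5 and R 3.0.2 are named in the submitters' processing notes. The paper's methods name a smaller array than the deposited values cover. Values were log2-transformed with no pseudocount, and those 23379 whose mean in either genotype exceeded a signal of 100 were tested with limma 3.58.1 (two-sided, genotype as the only term, R 4.3.3), with Benjamini-Hochberg adjustment over all of them and adjusted p under 0.05 counted as called. The platform annotation, which can be old, gives 1 symbol for 34945 of the 45101 probe sets, several for 932, which were not used (1 of them names Orc4), and none for 9160. For each gene the probe set brightest on average across the 8 arrays was used. Single values were compared by two-sided exact permutation over 70 assignments. No array repeats another, as any pair has at most 1 equal value, and how the embryos are related is not stated, so that p-values measure the spread between these arrays. Replicate numbers shared by WT and KO do not pair the arrays (correlations of deviations -0.00084, -0.082 and -0.027). The limma script was tested on simulated data. Genes with every array's value given are, in each role group, the 3 called genes with the largest difference (both of ribonucleotide reductase), those called higher, and those with probe sets called in opposite directions. In each further list the log2 difference is given for the 2 called genes lowest and the 2 highest by it. The members and lists were chosen with earlier results of these data known. Promoter windows are from RefSeq, build GRCm38.p6.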

Additional observations from a re-analysis of the deposited data

Results flagged for a closer look

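Of the 88 groups of 4 arrays examined (44 genes in WT and in KO), 4 had a highest array set apart from the other three, with a gap to its neighbour above Dixon's critical value, and chance alone gives about 1 in 20. In Orc3, WT replicate 1 was at 11.05 against 10.85 for the next and 10.82 for the lowest WT array (gap 0.897 of the range). In Orc4, KO replicate 3 was at 10.82 against 10.50 and 10.48 (gap 0.940). In Mcm4, WT replicate 3 was at 13.23 against 13.19 and 13.19 (gap 0.952), in a group of nearly level arrays. In Gins4, WT replicate 1 was at 11.68 against 11.47 and 11.45 (gap 0.944).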

How the results depend on the processing

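The direction of the replication genes depended on the scale. With hybridisation control scaling 5 of the 44 genes were called lower and 9 higher, with a median of 0.043 (licensing 2 and 3, helicase 0 and 1, polymerases 2 and 3, clamp and loader 0 and 2, ribonucleotide reductase 1 lower), 313 of all genes and 603 of all probe sets were lower and 8482 and 18139 higher, against 2367, 4146, 2875 and 8049 on the MAS5.0 scale, and the differences that turned positive were 0.45 for Orc2, 0.23 for Cdc7, 0.20 for Mcm2, 0.26 for Mcm3, 0.00068 for Mcm4, 0.29 for Mcm5, 0.17 for Mcm6, 0.12 for Gins4, 0.60 for Pola2, 0.34 for Pold1, 0.49 for Pold2, 0.43 for Pole, 0.064 for Pole2, 0.055 for Rpa1, 0.030 for Rpa2, 0.54 for Rfc1, 0.16 for Rfc3, 0.33 for Rfc5 and 0.17 for Rrm1. With 75th percentile scaling 39 genes were lower and 0 higher (licensing 0 higher) with a median of -0.97, and 4170 genes and 7230 probe sets were lower and 1450 and 5213 higher. The 1 gene called higher, in licensing, became 0 with poly-A controls, the mean of probe sets and the replicate block, and 2 with limma's trend and robust options and with the methods' t-test, adjusted or not. Over any probe set, 2 genes were higher, 1 of them of the clamp and loader, and 2 without KO replicates 3 and 5, 1 of them of the helicase. Of ribonucleotide reductase 1 gene in place of 2 was lower with the mean of probe sets, the methods' t-test adjusted, poly-A controls, quantile normalization and the replicate block. Cdc45 turned to -0.38 with the mean of probe sets. All genes called higher were 1716 with poly-A controls and 1863 after quantile normalization. The replicate block, on the 3 numbers that WT and KO share, left 22 genes lower and 0 higher (licensing 0 higher, helicase 6 and clamp and loader 3 lower, ribonucleotide reductase 1 lower), and over all genes 1230 lower and 1556 higher (2201 probe sets lower), and the numbers do not pair the arrays. The methods' t-test called 29 genes lower adjusted and 35 unadjusted. Leaving out 1 array gave 32 to 36 genes lower and 1 higher, with 2 genes (Pold1 and Rfc5) losing a call in at least 1 such fit. The filters at a signal of 200 and on the mean over all arrays and the pseudocounts of 16 and 64 gave 34 lower and 1 higher. The cause of these differences was not tested. With 4 arrays a group, an exact permutation test of a single value cannot go below p = 0.029.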
